A study of Mus musculus with 145 samples.

Results

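*Trh*, *Sct*, *Pyy*, *Cartpt* and *Calca* are 5 peptide hormone genes whose transcripts were followed here while mouse spermatogonial stem cells (SSCs) converted to pluripotent cells in culture. They were chosen by name, as peptide hormone genes that differed between cell classes of these same data, and all 5 were measured among the 28692 genes of the count tables. Because the values below chose the genes, the levels of the 5 are given as a description with no test. Each level is the summed count of unique molecular identifiers (UMIs, each standing for 1 captured RNA molecule) over the cells of 1 class in 1 library or sample of at least 5 cells, scaled by the trimmed mean of M-values (TMM) and written as CPM, the UMIs of a gene for a fixed scaled library total.

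The SSCs came from male pups of C57BL/6 females, transgenic for *Oct4*-EGFP or EGFP, and DBA males (DBA/2 in the study's methods), all samples used here share that F1 background, and SSCs grew on feeder fibroblasts. In the original condition SSCs were left without passage and without added chemicals, and single cells from picked SSC-like and pluripotent-like colonies were profiled by modified STRT-seq from day 0 to day 27 (4339 kept cells in 46 libraries). Germline-derived pluripotent stem cells (gPSCs) at passage 1 (48 cells) and passage 15 (32 cells) and embryonic stem cells (ESCs, 45 cells), all in N2B27 medium with 2iL, are 1 library each. In scTrio-seq2, which reads RNA and DNA methylation from the same cell, 8 samples (724 cells) from days 12, 14 and 16 received 5C, that is SGC707, vitamin C, EGCG, Daphnetin and TUDCA, and 5 samples (365 cells) received DMSO and come from days 20 and 24, with 8 cells of day 0, so that chemical and day cannot be told apart. The 46 libraries ranged from 15975410 to 34609591 UMIs in depth and the gPSC and ESC ones from 10833720 to 14807169, whereas the range was 5881566 to 10724925 over the 5C samples and 3889964 to 8062911 over the DMSO samples. No cell name was shared between libraries. Where nothing says that libraries came from separate cultures, p-values measure only the spread between these libraries.

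A peptide hormone is made as a larger precursor, which convertases cut in the secretory pathway, other enzymes trim and amidate, and dense-core granules store until release. Most such peptides act through G protein-coupled receptors. *Trh* encodes the precursor of thyrotropin-releasing hormone, the hypothalamic peptide that drives the pituitary to release thyrotropin. *Sct* encodes secretin, a gut hormone that makes the pancreas secrete bicarbonate, and *Pyy* encodes peptide YY, a gut satiety hormone read by neuropeptide Y receptors. *Cartpt* encodes the CART peptides of feeding circuits, and *Calca* encodes both calcitonin and calcitonin gene-related peptide (CGRP) by alternative splicing. The gene counts used here cannot separate these *Calca* transcripts.

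All 5 genes lie on the minus strand of GRCm38 and, in the GENCODE vM21 annotation, none overlaps another gene. *Trh* spans chr6:92242061-92244650, *Sct* chr7:141278330-141279133, *Pyy* chr11:102106676-102107832, *Cartpt* chr13:99898489-99901091 and *Calca* chr7:114631478-114636357. The promoters of the 5 genes, as RefSeq windows on GRCm38.p6 from 250 bases before to 50 bases after an annotated start, are shown because the genes did not move together and their windows differ in base content. The 250 bases before the start are printed for *Trh* (chr6:92244651-92244900), *Sct* (chr7:141279134-141279383), *Pyy* (chr11:102107833-102108082) and *Calca* (chr7:114636358-114636607). For *Cartpt*, whose RefSeq window lies in an exon of a longer GENCODE transcript, 30 bases are printed (chr13:99900777-99900806). All run 5′ to 3′ on the minus strand. Capitals mark the letters TGACGTCA (the cyclic AMP response element, CRE), TATAAA or GGGCGG (a GC box), searched on both strands.
Trh: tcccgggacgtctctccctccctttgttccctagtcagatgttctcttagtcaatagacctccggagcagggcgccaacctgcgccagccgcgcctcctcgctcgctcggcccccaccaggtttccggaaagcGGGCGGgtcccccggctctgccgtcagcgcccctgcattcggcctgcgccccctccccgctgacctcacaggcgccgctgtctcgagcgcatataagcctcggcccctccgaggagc
Sct: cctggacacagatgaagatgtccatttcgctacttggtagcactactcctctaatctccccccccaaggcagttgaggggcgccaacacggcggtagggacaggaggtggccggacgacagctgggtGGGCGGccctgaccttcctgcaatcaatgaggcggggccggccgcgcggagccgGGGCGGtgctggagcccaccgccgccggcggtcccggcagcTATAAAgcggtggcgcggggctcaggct
Pyy: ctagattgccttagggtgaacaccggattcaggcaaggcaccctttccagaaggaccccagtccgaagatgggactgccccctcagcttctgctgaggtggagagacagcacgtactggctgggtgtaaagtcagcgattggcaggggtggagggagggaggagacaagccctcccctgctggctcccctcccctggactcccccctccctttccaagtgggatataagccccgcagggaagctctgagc
Cartpt: ccggcgggcatTGACGTCAaacggcagcgg
Calca: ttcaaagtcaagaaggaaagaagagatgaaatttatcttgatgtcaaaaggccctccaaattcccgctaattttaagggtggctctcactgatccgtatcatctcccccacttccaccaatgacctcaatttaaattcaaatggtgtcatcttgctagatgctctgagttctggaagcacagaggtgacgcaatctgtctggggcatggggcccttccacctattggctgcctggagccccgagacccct

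The windows of *Trh*, *Cartpt* and *Sct* held 28, 26 and 24 CpG dinucleotides in 300 bases, against a median of 7 over 32817 promoters of that length, while those of *Pyy* and *Calca* held 8 each. The *Cartpt* window alone among the 5 held the full CRE, which 1.79% of all promoters hold. The shorter CRE core (TGACG on either strand, which the full CRE contains) was found once each in the *Trh* and *Calca* windows and is held by 20.8% of all promoters. *Sct* held 2 GC boxes and a TATAAA, and *Trh* and *Cartpt* held 1 GC box each, against shares of 35.6% and 13.6% of promoters for the GC box and TATAAA. No window of the 5 genes held the octamer ATGCAAAT (1.74% of promoters) or the E box CACGTG (7.15%). These matches are letters in a window and not sites shown to be used.

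Cells were classed by the clusters deposited with the counts. SSC1 to SSC4 were pooled as SSC1-4 (36 sums, 2248 cells), and the 4 clusters of the reprogramming branch are RPG1 (7 sums, 321 cells), RPG2 (3 sums, 44 cells), RPG3 (8 sums, 261 cells) and RPG4 (2 sums, 21 cells). The clusters were drawn on the transcriptomes that hold these genes, and colonies were picked, so neither a level nor a share of cells is independent of them. The summed SSC and pluripotency markers separated RPG2 to RPG4 from SSC1-4, whereas those of RPG1 overlapped SSC1-4. Of the 6 pluripotency markers only *L1td1* did not overlap (9.18 to 62.2 CPM in RPG1 and 0 to 8.93 CPM in SSC1-4). With overlap, the medians of *Pou5f1*, *Nanog*, *Sox2* and *Utf1* were higher in RPG1 and that of *Dppa3* was lower (39.8 against 88.2 CPM). The summed level of 5 SSC markers was 1166 to 2476 CPM in SSC1-4, 1249 to 1598 CPM in RPG1 and 100.3 to 314.2 CPM in RPG3, and that of 6 pluripotency markers was 68.1 to 401.6 CPM in SSC1-4, 166.3 to 449.9 CPM in RPG1 and 1865 to 2821 CPM in RPG3. In RPG2 and RPG4 the SSC markers summed to 166.1 to 281.7 and 77.7 to 123.3 CPM, and the pluripotency markers to 2062 to 2797 and 899.8 to 1167 CPM. The summed level of 8 feeder fibroblast markers was 15.9 to 168.8 CPM in SSC1-4 and 11.6 to 44.9 CPM in RPG3.

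*Trh* was low in SSCs and high in each class nearer to pluripotency. In SSC1-4 its sums ran from 0 over a median of 7.49 to 30.7 CPM (9.03 ± 7.98 CPM, SD, n = 36), and in RPG1 from 26.8 over 70.5 to 139.6 CPM (67.6 ± 39.2 CPM, SD, n = 7). The RPG2 sums were 98.0, 144.6 and 443.9 CPM, the RPG3 sums ran from 269.3 over 353.5 to 570.1 CPM (400.02 ± 118.8 CPM, SD, n = 8), and the RPG4 sums were 374.9 and 726.1 CPM. Every RPG3 sum therefore lay above every SSC1-4 and every RPG1 sum, while RPG1 overlapped the highest SSC1-4 sums, and RPG2 overlapped both RPG1 and RPG3.

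The mean *Trh* level was 7.48-fold higher in RPG1 and 44.3-fold higher in RPG3 than in SSC1-4, and 5.92-fold higher in RPG3 than in RPG1. Over all 19129 genes tested, 11.6% were called higher and 15.2% lower in RPG3 than in SSC1-4, and 1.04% and 0.371% in RPG1, and nothing is read from these shares about the 5 genes since the contrast chose them. A gene was called where edgeR's quasi-likelihood test gave a Benjamini-Hochberg adjusted p below 0.01 and the natural logarithm of its fold was 1 or more in size. The RPG3 to SSC1-4 ratio was 43.1 in batch B1 (36 libraries) and 43.0 in batch B2 (10 libraries). Within the 7 libraries that held both RPG1 and RPG3 cells, *Trh* was higher in RPG3 in 7. The step from SSC1-4 to RPG1 was less even, since of the 2 libraries with both classes 1 had *Trh* higher in RPG1 (37.4 against 26.4 CPM) and the other had it lower (26.8 against 30.4 CPM).

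*Trh* was high in the established lines too. Its level was 650.0 CPM in gPSC passage 1, 331.0 CPM in gPSC passage 15 and 494.4 CPM in ESCs. These single libraries have no replicate check, and without TMM scaling the values and their exact Poisson 95% intervals, which cover counting error only, were 549.2 CPM (537.0 to 561.6), 309.1 CPM (298.7 to 319.8) and 443.8 CPM (433.1 to 454.6). By their means the classes ran from SSC1-4 over RPG1, RPG2 and RPG3 to RPG4, but each class overlapped its neighbour in this order, and RPG3, RPG4 and the 3 lines lay in 1 overlapping range.

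**Figure D1:**
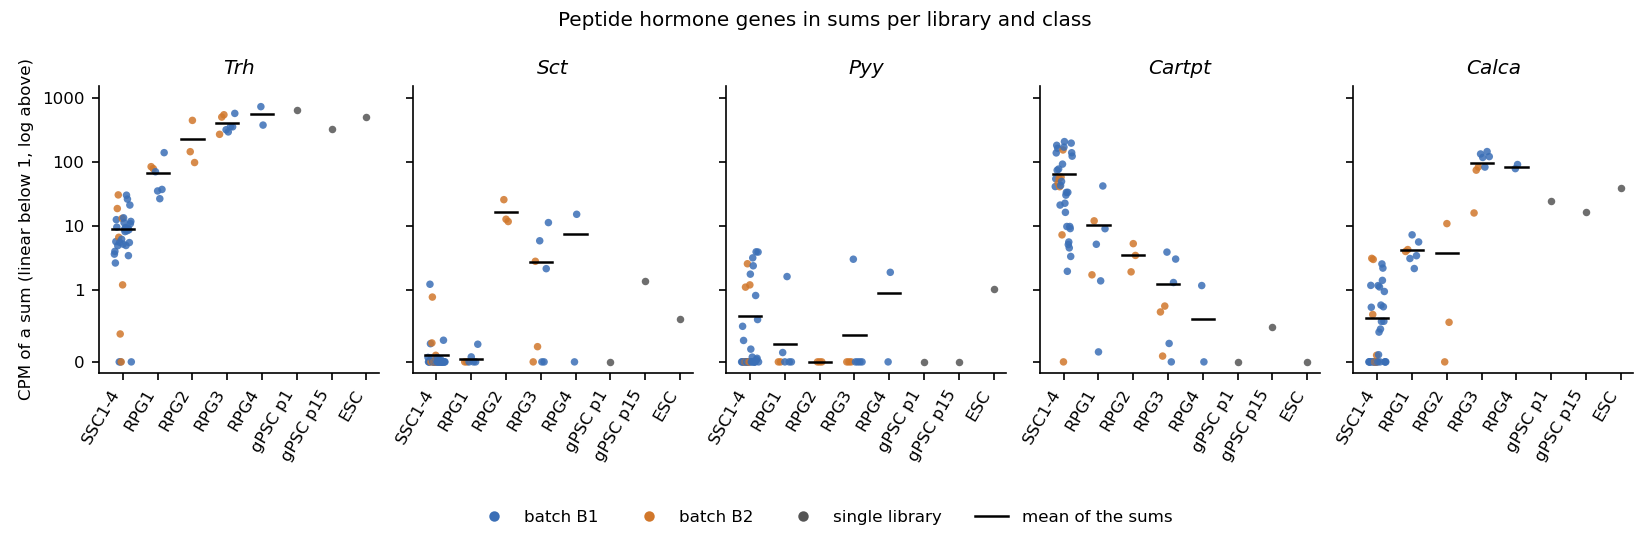
Level of each gene in CPM (linear below 1, logarithmic above) in SSC1-4, RPG1 to RPG4, gPSCs and ESCs. Each point is 1 sum over the cells of a class in 1 library, coloured by batch, and bars are means of the sums. *Trh* spans 0 to 30.7 CPM in SSC1-4 and 269.3 to 570.1 CPM in RPG3, *Calca* is highest in RPG3, *Sct* has its highest sum in RPG2, and *Cartpt* is highest in SSC1-4.

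In single cells *Trh* was seen in most cells of every reprogramming class. After each cell was thinned to 50000 UMIs, so that depth was equal and shallower cells were left out, *Trh* was seen in 18.3% of 2100 SSC1-4 cells (exact 95% interval 16.7 to 20.1%), 87.8% of 312 RPG1 cells (83.7 to 91.2%) and 95.7% of 254 RPG3 cells (92.4 to 97.8%). The shares were 77.8% of 45 RPG2 cells (62.9 to 88.8%) and 93.9% of 33 RPG4 cells (79.8 to 99.3%), so that RPG2 was not above RPG1 by this measure and the RPG3 and RPG4 intervals overlapped. Without thinning the shares in SSC1-4, RPG1 and RPG3 were 38.1% of 2265, 97.3% of 333 and 99.2% of 261 cells. Thinning left out 165, 21 and 7 cells, and the median depth was 248474, 238901 and 285699 UMIs. Off the branch the thinned share was 5.41% in Fibroblast 2 and 10.1% in Meiotic 2, but 34.2% in Early-pluripotency 2 (23.7 to 46.0%), 65.5% in Neural 3 (51.9 to 77.5%) and 71.7% in Neural 2 (62.4 to 79.8%). The *Trh* transcripts of RPG3 were spread over the class, with 50% of its 28589 UMIs in 60 cells and a median cell at 326.3 CPM. Those of SSC1-4 were not, with 50% of 6297 UMIs in 78 of 2265 cells.

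*Calca* was high in fewer classes than *Trh*. In SSC1-4 its sums ran from 0 to 3.16 CPM with 17 of 36 at 0 (0.616 CPM on average), and in RPG1 from 2.196 over 4.05 to 7.34 CPM (4.32 ± 1.72 CPM, SD, n = 7). The RPG2 sums were 0, 0.555 and 10.98 CPM. In RPG3 they ran from 16.1 over 100.6 to 145.1 CPM (96.9 ± 41.5 CPM, SD, n = 8), and in RPG4 they were 78.8 and 91.3 CPM. RPG3 lay above every SSC1-4, RPG1 and RPG2 sum, and RPG4 lay within the RPG3 range. In the 2 RPG4 sums 1 cell each gave 64.6% and 49.6% of the *Calca* UMIs, and without it the unscaled values were 34.3 in place of 78.6 CPM and 54.7 in place of 95.8 CPM. RPG2, which was high in *Trh*, was therefore not high in *Calca*, and of the highest RPG2 sum (41 UMIs) 97.6% came from 1 cell.

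The mean *Calca* level was 157.2-fold higher in RPG3 than in SSC1-4 and 22.4-fold higher than in RPG1. It was higher in RPG3 than in RPG1 in 7 of 7 libraries with both. The RPG3 to SSC1-4 ratio differed between the batches (228.9 in B1 and 58.5 in B2). The lowest RPG3 sum, at 16.1 CPM, came from 7 cells of a day 12 library of B2, in which 1 cell gave 22 of 23 UMIs, and the other 7 RPG3 sums were at 74.6 CPM or more. *Calca* stood at 24.7 CPM in gPSC passage 1, 16.7 CPM in gPSC passage 15 and 39.6 CPM in ESCs, below 7 of the 8 RPG3 sums. Unscaled, these were 20.9 CPM (18.6 to 23.4), 15.6 CPM (13.3 to 18.1) and 35.6 CPM (32.6 to 38.8), with exact Poisson intervals.

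In thinned cells *Calca* was seen in 1.57% of SSC1-4, 17.9% of RPG1, 2.22% of RPG2, 68.9% of RPG3 (62.8 to 74.5%) and 78.8% of RPG4 cells (61.1 to 91.0%). Of the 218 RPG3 cells with a *Calca* UMI before thinning, 217 also had *Trh*, as had 259 of all 261 RPG3 cells. In RPG1, *Calca* was seen in 176 of 333 cells before thinning, and 173 of these had *Trh*.

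*Sct* had its highest sum in RPG2, and its transcripts came from few cells. The RPG2 sums were 11.8, 12.9 and 25.9 CPM, above every sum of SSC1-4 (0 to 1.25 CPM, 25 of 36 at 0), RPG1 (0 to 0.247 CPM, 5 of 7 at 0) and RPG3 (0 to 11.4 CPM, mean 2.82 CPM). The mean was 183.0-fold higher in RPG2 than in SSC1-4 and 5.98-fold higher than in RPG3. Both folds rest on few molecules, since 1 library gave 85 of the 206 RPG3 UMIs and 1 cell gave 24 of the 66 SSC1-4 UMIs. In each RPG2 sum 1 cell gave 51.6 to 65.6% of the UMIs, and without it the unscaled values were 13.96 in place of 26.3 CPM, 5.83 in place of 11.4 CPM and 3.63 in place of 9.98 CPM. The 2 lower of these then lay under the highest unscaled RPG3 sum of 9.55 CPM, which was itself 5.80 CPM without its top cell. With top cells left out of both classes, only 3.63 CPM lay within the RPG3 range. The gap between RPG2 and RPG3 thus rested in part on single cells. All 3 RPG2 sums are of batch B2, in which the RPG3 sums averaged 1.02 CPM, and batch B1 gave no RPG2 sum. The highest unscaled RPG3 sum of B2, 2.47 CPM, lay below all 3 RPG2 values without their top cells. *Sct* was seen in 10 of 47 RPG2 cells, 14 of 261 RPG3 cells and 20 of 2265 SSC1-4 cells, and 50% of its 205 RPG2 UMIs lay in 3 cells. Of the RPG4 sums, 1 was 0 and the other was 15.3 CPM, above 2 of the 3 RPG2 sums, with all of its 80 UMIs in 1 cell. The gPSC libraries gave 0 and 1.38 CPM and the ESC library 0.602 CPM.

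*Cartpt* went the other way. Its SSC1-4 sums ran from 0 over 42.2 to 207.5 CPM (64.6 ± 63.7 CPM, SD, n = 36), and the RPG1 sums from 0.140 over 5.24 to 42.3 CPM (10.3 ± 14.8 CPM, SD, n = 7). The RPG2 sums were 1.95, 3.51 and 5.36 CPM, the RPG3 sums ran from 0 over 0.741 to 3.96 CPM (mean 1.27 CPM, n = 8), and the RPG4 sums were 0 and 1.19 CPM. The mean was 6.26-fold higher in SSC1-4 than in RPG1 and 50.7-fold higher than in RPG3. These means pool days of different level. At day 23 SSC1-4 ran from 3.39 to 9.90 CPM, while, scaled with the clusters, the RPG1 sums were 9.05 and 42.6 CPM and the RPG3 sums 1.35 and 3.11 CPM. The ranges still overlapped, since 1 SSC1-4 sum of 6 cells was 0 and the next lowest, at 1.99 CPM, was under the highest RPG3 sum. Of the 2 libraries with both SSC1-4 and RPG1 sums, 1 had *Cartpt* higher in RPG1 (42.3 against 5.18 CPM) and the other had it lower (1.41 against 1.99 CPM). *Cartpt* was lower in RPG3 than in RPG1 in 6 of 7 libraries with both. It was listed with 0 UMIs in the ESC and gPSC passage 1 libraries and with 5 UMIs in gPSC passage 15.

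Thinned to equal depth, *Cartpt* was seen in 43.8% of SSC1-4 cells (41.7 to 46.0%), 11.9% of RPG1 cells (8.49 to 15.97%), 13.3% of RPG2 cells and 5.12% of RPG3 cells (2.75 to 8.59%). Expression among SSCs was uneven, since 139 of 2265 cells held 50% of 35007 UMIs, the median cell was at 6.20 CPM and the highest at 2200.9 CPM. *Cartpt* and *Trh* were not exclusive in single cells. *Trh* was seen in 573 of the 1438 SSC1-4 cells with *Cartpt* (39.8%, against 38.1% of all SSC1-4 cells), in 85 of the 89 RPG1 cells with *Cartpt* and in 49 of 49 such RPG3 cells.

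Among the SSC clusters, the *Cartpt* sums averaged 99.6 CPM in SSC1 (28 sums), 92.1 CPM in SSC2 (23 sums), 17.3 CPM in SSC3 (18 sums) and 21.4 CPM in SSC4 (16 sums), and all 4 ranges overlapped. These means pool days of different level, since 13 of the 18 SSC3 and 13 of the 16 SSC4 sums are of days 20 and 23. At day 20 the means were 26.5 CPM in SSC1, 16.04 CPM in SSC2, 19.04 CPM in SSC3 and 32.02 CPM in SSC4, in another order. Within a library *Cartpt* was higher in SSC1 than in SSC3 in 9 of 11 libraries with both and higher in SSC2 than in SSC3 in 9 of 12. SSC1 was higher than SSC2 in 7 and lower in 14 of 21 libraries. SSC2 and SSC4 were not ordered, each being the higher in 5 of 10 libraries. *Trh* had means of 5.60, 6.72, 15.4 and 17.6 CPM in SSC1 to SSC4, with overlapping ranges. It was higher in SSC3 than in SSC1 in 10 of 11 libraries. *Trh* was higher in SSC4 than in SSC2 in 8 of 10 libraries with both, and SSC3 was above SSC4 in 9 of 15.

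By day, the *Cartpt* level of SSC1-4 had no steady course. It was 41.4 CPM at day 0 and 54.7 CPM at day 10 (1 sum each), 138.4 and 181.7 CPM at day 12, 41.2 to 163.2 CPM at day 14 and 7.34 to 58.1 CPM at day 16. Apart from the sum of 0, the day 18 sums were 92.6 CPM or more. At day 20 the sums ran from 1.99 to 33.7 CPM, at day 23 from 3.39 to 9.90 CPM, and at day 27 from 123.1 to 196.5 CPM. Days 20 and 23 were thus low between higher days on both sides. The day largely follows the 5 batch labels deposited with the cells. The label of 6 sums from day 23 averaged 6.32 ± 2.62 CPM (SD), that of 7 sums from day 20 averaged 21.3 ± 12.4 CPM, and those of 18 sums from days 0 to 18, of 2 sums from day 18 and of 3 sums from day 27 averaged 72.3 ± 53.4, 188.9 and 153.0 ± 38.6 CPM. For days 20, 23 and 27, day and label cannot be told apart. Within the label of days 0 to 18 the level differed too, with 138.4 and 181.7 CPM at day 12 and 7.34 to 58.1 CPM at day 16. On days 18, 20 and 23, the only days with RPG1 sums, SSC1-4 had a *Cartpt* median of 13.2 CPM (0 to 207.5 CPM, 18 sums), against 5.24 CPM in RPG1, and the ranges overlapped. The order turned at day 23. At days 18, 20 and 23 the means were 124.8, 21.3 and 6.32 CPM in SSC1-4 and, scaled with the clusters, 7.01, 2.25 and 25.8 CPM in RPG1. On the same days *Trh* had a median of 8.86 CPM in SSC1-4 (1.22 to 30.4 CPM), against 70.5 CPM in RPG1.

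**Figure D2:**
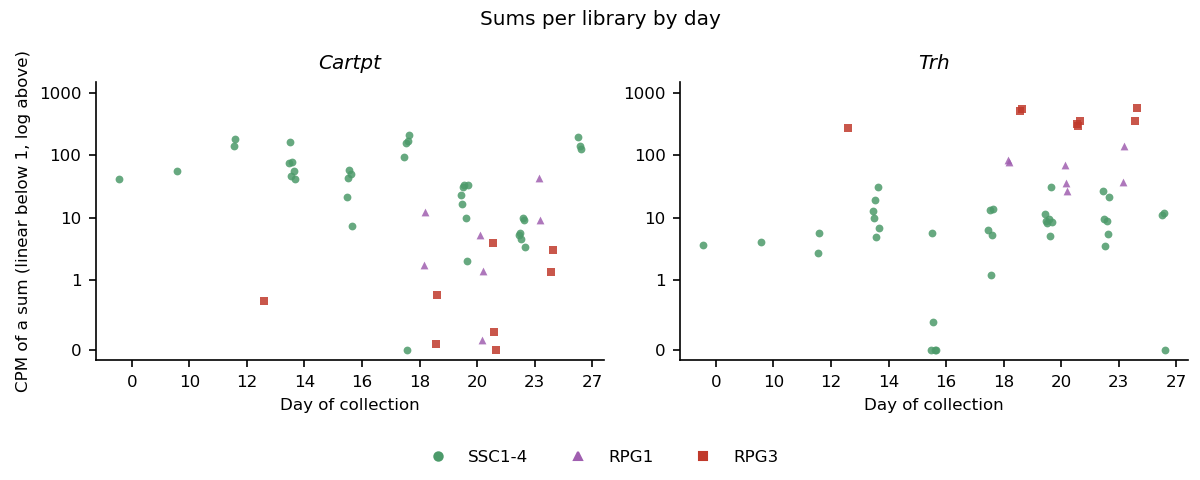
Level of *Cartpt* and *Trh* in CPM (linear below 1, logarithmic above) by day of collection, with 1 point for each sum of SSC1-4, RPG1 or RPG3 cells in a library. *Cartpt* in SSC1-4 is lower at days 20 and 23 than at days 12, 18 and 27, apart from a day 18 sum of 0, and *Trh* in RPG3 is above SSC1-4 on each day with both.

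*Pyy* was low in SSC1-4 and in each of RPG1 to RPG4. It was at 0 in 20 of 36 SSC1-4 sums and at most 3.99 CPM (0.639 CPM on average), at 0 in 5 of 7 RPG1 sums, at 0 in all 3 RPG2 sums and at 0 in 7 of 8 RPG3 sums, the other being 3.07 CPM from 31 UMIs of 1 cell. The ranges of these classes all overlapped, so that no order can be given among them. A UMI of *Pyy* was seen in 65 of 2265 SSC1-4 cells, and 5 of these held 50% of its 461 UMIs.

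Away from the reprogramming branch lie the clusters named Meiotic, Neural, Fibroblast and Early-pluripotency in the annotation. Their *Cartpt* sums were 97.7 to 169.6 CPM in Meiotic 2 (5 sums), 40.4 to 223.9 CPM in Neural 1 (8 sums), 32.2 to 118.5 CPM in Fibroblast 1 (4 sums) and 23.7 to 87.5 CPM in Meiotic 1 (6 sums), all within the range of the SSC clusters. In thinned cells *Cartpt* was seen in 82.7% of Neural 1 (77.6 to 87.0%) and 72.5% of Meiotic 2 cells (67.5 to 77.0%), against 62.9% of SSC1 cells (59.1 to 66.5%). These shares pool days, and at day 27, which holds 206 of the 240 Neural 1 cells in sums, the mean level was 189.5 CPM in Neural 1 and 325.6 CPM in SSC1 (3 sums each). *Cartpt* was lower in both Early-pluripotency clusters (6.83 and 7.16 CPM in cluster 1 and 12.6 CPM in cluster 2), where *Trh* stood at 2.72, 17.5 and 16.2 CPM, near its level in SSCs. The Early-pluripotency clusters thus had *Cartpt* levels inside the RPG1 range without the *Trh* level of RPG1.

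Other clusters held single high values. *Trh* was 117.4 and 126.0 CPM in Neural 2 and Neural 3 of 1 day 27 library and 22.2 and 5.48 CPM in the other day 27 library. *Pyy* had its highest sums of the original condition in Neural 3 (16.5 and 19.5 CPM), and each rested on 1 cell, which held 71.6% of 162 UMIs in the first and all of 71 UMIs in the second. Without these cells the unscaled values were 4.42 and 0 CPM. *Calca* was at 94.4 CPM in the Fibroblast 2 sum of day 8, where 79.9% of 278 UMIs came from 1 cell, and at 4.20 and 0 CPM in the other Fibroblast 2 sums. The 8 feeder fibroblast markers summed to 2116 to 6120 CPM in Fibroblast 2 and 1217 to 1267 CPM in Neural 3, and their part in these values was not tested.

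**Figure D3:**
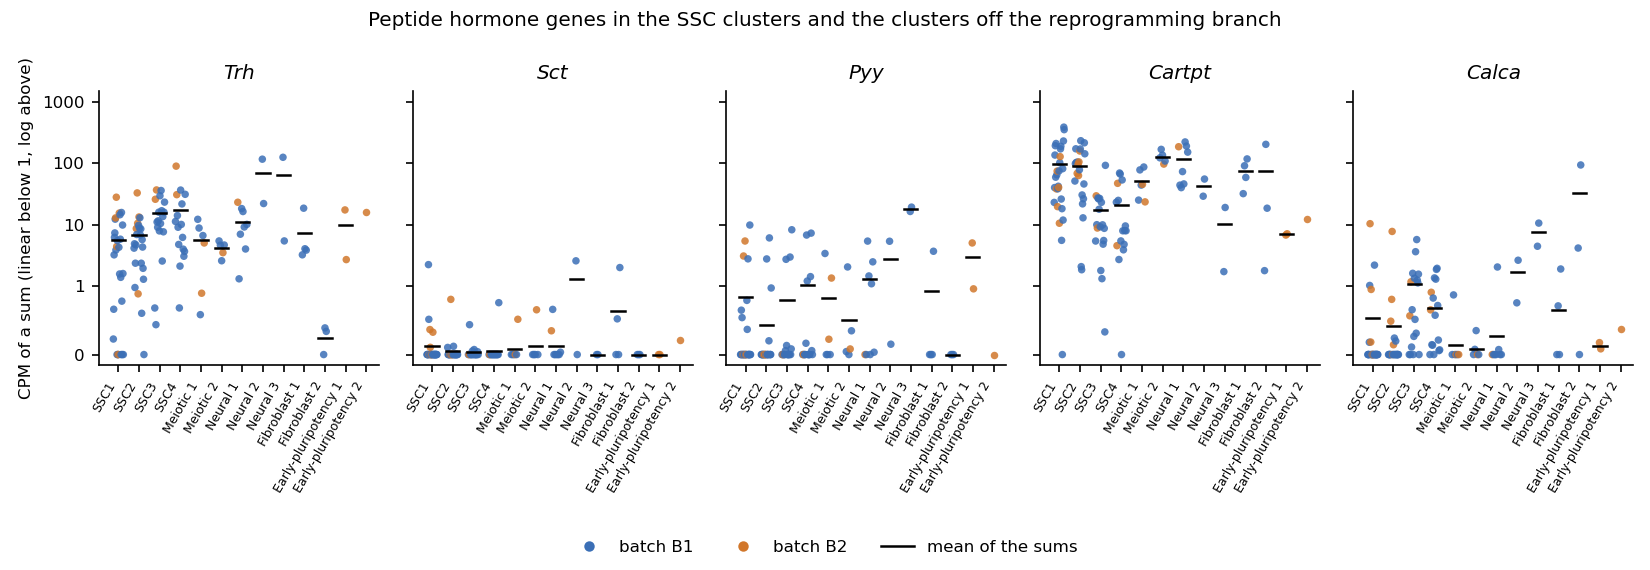
Level of each gene in CPM (linear below 1, logarithmic above) in SSC1 to SSC4 and in the clusters off the reprogramming branch. Points are sums per library and cluster, coloured by batch, and bars are means. *Cartpt* is at 97.7 CPM or more in all Meiotic 2 sums, the *Trh* mean is higher in SSC3 and SSC4 than in SSC1 and SSC2, and *Pyy* is highest in Neural 3.

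For the scTrio-seq2 cells no cluster names were used, and the cells were split at 400 CPM of *Dazl*, a germ cell RNA-binding gene. This gave Dazl-high cells (566 in 8 samples of 5C, 206 in 5 samples of DMSO) and Dazl-low cells (157 in 6 samples of 5C, 157 in 2 samples of DMSO, in sums of at least 5 cells). Between 200 and 800 CPM of *Dazl* lay 67 of 724 5C cells (9.25%) and 24 of 365 DMSO cells (6.58%). The median depth was 74027 UMIs in Dazl-high and 98592.5 UMIs in Dazl-low 5C cells, and 80203.5 and 72344 UMIs in DMSO cells.

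*Cartpt* separated 5C from DMSO among Dazl-high cells. The DMSO samples 1 to 5 stood at 44.3, 82.5, 73.0, 188.9 and 237.6 CPM (125.3 ± 83.4 CPM, SD, n = 5). All 8 samples of 5C lay between 0 and 0.844 CPM, 4 of them at 0, from 10 UMIs in all. The ranges did not overlap and the mean was 518.9-fold higher in DMSO. The size of this fold is loose, since it rests on the 10 UMIs of 5C, with 7 of 8 sums at 3 UMIs or fewer. For this contrast 2.33% of 12452 genes were called higher and 2.17% lower in 5C, and nothing is read from these shares about *Cartpt*, which the contrast chose. A *Cartpt* UMI was seen in 149 of 206 DMSO cells (72.3%, exact 95% interval 65.7 to 78.3%) and in 6 of 566 5C cells (1.06%, 0.390 to 2.29%). In Dazl-low cells *Cartpt* was at 0 in all 6 samples of 5C and at 0.499 and 0.451 CPM in DMSO samples 1 and 2, from 4 UMIs in all. Dazl-high cells of the same 2 samples stood at 44.3 and 82.5 CPM. The Dazl-high DMSO mean was 263.7-fold higher than the Dazl-low one, but it also holds samples 3 to 5, which gave no Dazl-low sum.

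*Pyy* had the same direction on fewer molecules. In Dazl-high DMSO cells it stood at 26.2, 0, 3.71, 25.1 and 22.5 CPM in samples 1 to 5 (15.5 ± 12.6 CPM, SD, n = 5), seen in 26 of 206 cells (12.6%). In Dazl-high 5C cells a UMI was seen in 0 of 566 cells, which allows, at 3 counts, a share of cells with a UMI of up to 0.530% at this depth. With 3 counts over the group as the floor, the pooled level was at least 228.7-fold higher in DMSO, although the DMSO sample at 0 overlaps the 5C samples. In Dazl-low cells it was at 0 in all 5C samples but sample 3 (17.9 CPM, 10 UMIs of 1 cell) and at 2.25 and 0 CPM in DMSO. The days of the samples were 12 to 16 in 5C and 20 and 24 in DMSO, so chemical and day cannot be told apart, and the part of the day in these levels was not tested.

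*Trh* was high in Dazl-low cells of both arms. It stood at 913.8 and 1063.8 CPM in the 2 DMSO samples and ran from 344.9 over 561.6 to 1171 CPM in the 6 samples of 5C (614.3 ± 294.4 CPM, SD). The DMSO values were 625.5 and 754.8 CPM before TMM scaling, and the ranges overlapped on both scales. For this contrast 1.42% of 11647 genes were called higher and 1.21% lower in 5C. Among Dazl-high cells *Trh* ran from 9.09 over 56.8 to 187.3 CPM in the 8 samples of 5C, and it was 255.7 and 139.7 CPM in DMSO samples 1 and 2 but 2.205, 1.76 and 3.01 CPM in DMSO samples 3 to 5. Of the 5C samples, 6 lay between these 2 sets of DMSO samples, and samples 1 (187.3 CPM) and 5 (145.7 CPM) lay within the range of the higher set.

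DMSO samples 1 and 2 hold 8 and 13 Dazl-high cells beside 80 and 77 Dazl-low cells, whereas samples 3 to 5 hold 46 to 86 Dazl-high cells. The 7 neuroendocrine and neuronal markers summed to 193.3 and 154.4 CPM in samples 1 and 2 against 3.71 to 8.36 CPM in samples 3 to 5, and the 6 pluripotency markers to 700.6 and 480.4 CPM against 166.0 to 487.1 CPM, and their part in the *Trh* level was not tested. Per cell, *Trh* was seen in 435 of 566 Dazl-high 5C cells (76.9%, 73.2 to 80.3%) and in 38 of 206 Dazl-high DMSO cells (18.4%, 13.4 to 24.4%), in 154 of 158 Dazl-low 5C cells and in 158 of 159 Dazl-low DMSO cells. These shares pool the cells of all samples, and samples 3 to 5 gave most of the Dazl-high DMSO cells. The intervals, here and for the other genes, cover counting error only and not the spread between samples. By *Dazl* level, the pooled and unscaled *Trh* level of 5C cells was 632.9 CPM below 200 CPM of *Dazl*, 618.9 CPM from 200 to 400, 193.3 CPM from 400 to 800 and 71.8 CPM above, and that of DMSO cells was 692.4, 458.4, 89.6 and 8.73 CPM.

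*Calca* was high in the Dazl-low cells of some samples. It stood at 71.1 and 41.7 CPM in DMSO and at 16.4, 0, 69.2, 3.86, 0 and 3.37 CPM in samples 1, 3, 5, 6, 7 and 8 of 5C, so the ranges overlapped. A UMI was seen in 79 of 159 DMSO cells (49.7%, 41.7 to 57.7%) and in 46 of 158 5C cells (29.1%, 22.2 to 36.9%). In Dazl-high cells it was at 0 to 1.83 CPM in 5C and at 4.03, 14.6, 0, 0 and 0 CPM in DMSO, the values above 0 being samples 1 and 2. *Sct* did not exceed 12.6 CPM. It ran from 0 to 3.84 CPM in Dazl-high 5C cells, was at 0 in all 5 Dazl-high DMSO samples (0 of 206 cells, which allows a share of cells with a UMI of up to 1.46%), ran from 0 to 12.6 CPM in Dazl-low 5C cells and was at 0.2496 and 2.71 CPM in Dazl-low DMSO cells.

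**Figure D4:**
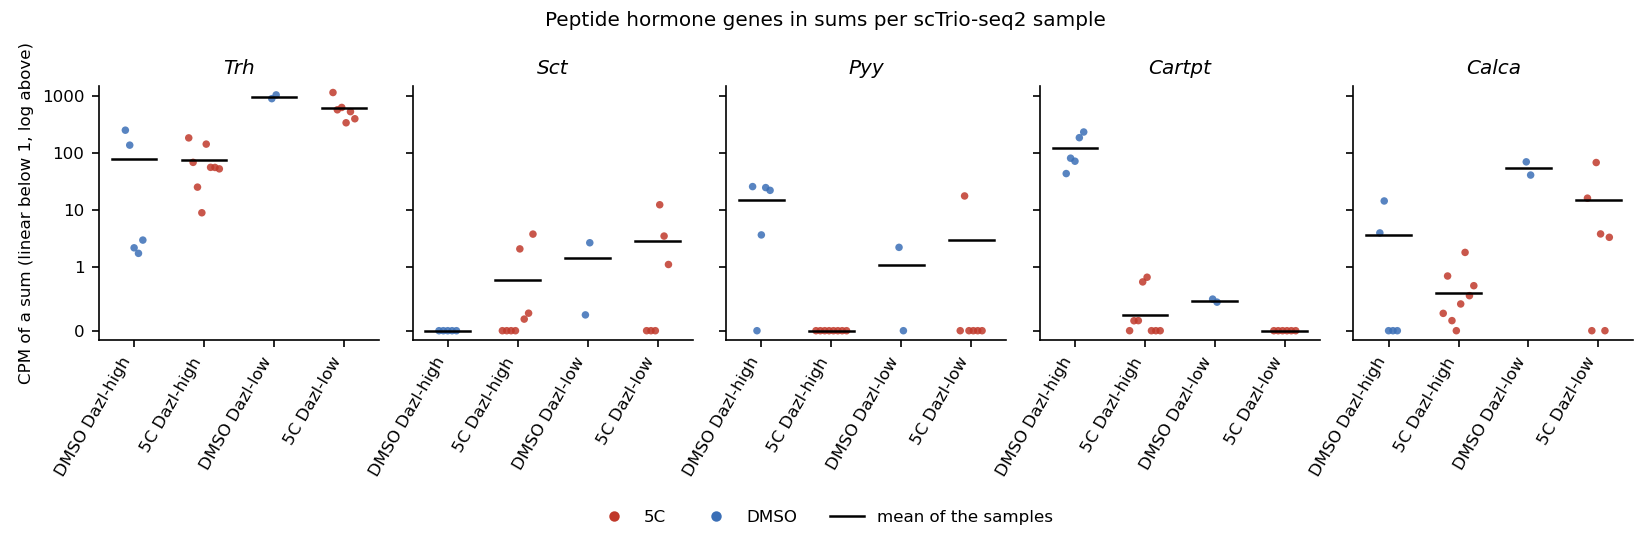
Level of each gene in CPM (linear below 1, logarithmic above) in scTrio-seq2 cells with *Dazl* above or below 400 CPM. Each point is the sum over 1 sample, 5C in red and DMSO in blue, and bars are means over samples. *Cartpt* in Dazl-high cells is at 44.3 CPM or more in every DMSO sample and at 0.844 CPM or less in every 5C sample, and *Trh* in Dazl-high DMSO cells falls in 2 sets, at 139.7 CPM or more and at 3.01 CPM or less.

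The genes whose pattern was most like each of the 5 were taken as the 3 with the highest Pearson correlation of log2(CPM + 1) over 138 sums, among 14793 genes with a mean of at least 1 CPM. The sums share libraries and depth, so the correlations are a description. Nearest to *Trh* were *Tdgf1*, a Nodal co-receptor gene (r = 0.84), *L1td1*, an RNA-binding gene of pluripotent cells (r = 0.83), and *Stmn2*, a neuronal microtubule regulator (r = 0.81). Their RPG3 medians were 758.9, 520.7 and 433.9 CPM, against SSC1-4 medians of 0.552, 0.398 and 0.457 CPM. In RPG2 *Tdgf1* (363.2 to 557.5 CPM) and *L1td1* (384.7 to 481.7 CPM) were high, while *Stmn2* was at 22.5 to 78.8 CPM.

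Nearest to *Calca* were *Otx2*, a homeobox factor of the epiblast and forebrain (r = 0.83), *Fgf15*, a fibroblast growth factor (r = 0.82), and *Etl4* (r = 0.81). *Otx2* shared the *Calca* pattern in RPG2, with sums of 0 to 6.96 CPM there and 144.1 to 364.1 CPM in RPG3. *Fgf15* had 0 to 0.557 CPM in RPG2 and 16.8 to 86.8 CPM in RPG3, whereas *Etl4* was already at 20.0 to 103.9 CPM in RPG2. Nearest to *Cartpt* were *A230065H16Rik* (r = 0.71), *Asb9* (r = 0.71) and *Pde4c*, a cyclic AMP phosphodiesterase (r = 0.70). *Asb9* ran from 8.56 to 193.6 CPM in SSC1-4 and from 0 to 8.39 CPM in RPG3. For *Pyy* the nearest genes were *Hoxa3* (r = 0.46), *Col9a1* (r = 0.45) and *Foxd1* (r = 0.45), of which *Col9a1* and *Foxd1* had medians of 0 in all 5 classes. *Sct* did not reach a mean of 1 CPM. Among the 5 genes, *Trh* and *Calca* had r = 0.68, *Trh* and *Cartpt* r = -0.52 and *Cartpt* and *Calca* r = -0.55, while *Pyy* had r between -0.03 and 0.04 with each of the other 3.

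The rest of the peptide hormone pathway was described by 5 lists of 131 genes, namely other peptide hormones and neuropeptides, processing and breakdown enzymes, granins and granule proteins, receptors of the 5 products, and transcriptional regulators tied to such genes. Of these, 102 were tested between RPG3 and SSC1-4, and 20 were higher and 19 lower (edgeR's quasi-likelihood test, Benjamini-Hochberg adjusted p over all genes), against the 11.6% and 15.2% of all genes. Their median log2 fold change was -0.36, or -0.33 with genes at 0 in 1 group set to their bound, against -0.19 over all genes tested. Between RPG1 and SSC1-4, 1 list gene was higher and 0 were lower, against 1.04% and 0.371% of all genes, while DESeq2 called 1 higher and 1 lower. At an unadjusted p under 0.05, 15 and 9 of the 102 list genes were higher and lower, beside 1703 and 1939 of all 19129 genes. That gene was *Apela*, which encodes a ligand of the apelin receptor. Its sums were 5.63 to 14.9 CPM in RPG1 and 0 to 12.1 CPM in SSC1-4 (log2 fold change 1.74, adjusted p = 2.15e-04), and the call was not made in either batch alone.

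Among 49 other hormone genes tested, 9 were higher and 10 lower in RPG3 than in SSC1-4, with a median log2 fold change of -0.94 (-0.82 with bounds). *Apela* ran from 39.2 to 199.4 CPM in RPG3 without overlap (log2 fold change 5.41, adjusted p = 1.30e-25), and the endothelin gene *Edn2* ran from 0 to 13.1 CPM in RPG3 and from 0 to 1.66 CPM in SSC1-4 (5.56, adjusted p = 1.50e-09). *Edn1*, another endothelin gene, had 139 UMIs in RPG3 and 3 in SSC1-4, a pooled ratio of 356 with a counting interval of 119 to 1747 (adjusted p = 4.76e-13). Of those lower, *Pthlh* (parathyroid hormone-like hormone), *Edn3* and *Calcb*, which encodes the second CGRP and is the paralog of *Calca*, had 0 UMIs in RPG3. With 3 counts over the RPG3 group as the floor, SSC1-4 was at least 20.5-fold higher for *Pthlh* (adjusted p = 7.85e-04), 9.80-fold for *Edn3* (adjusted p = 0.00414) and 7.55-fold for *Calcb* (adjusted p = 0.00857). *Calcb* therefore had the opposite direction to *Calca*, at a low level of 0.1902 CPM on average in SSC1-4. *Pthlh*, *Edn3* and *Calcb* were not called in batch B1 alone, and *Edn3* and *Calcb* not by DESeq2.

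Of the 19 processing and breakdown genes tested, 5 were higher and 2 lower in RPG3. *Pcsk1*, a prohormone convertase, was higher at a low level (0 to 6.84 CPM against 0 to 0.335 CPM, log2 fold change 5.55, adjusted p = 1.76e-08, not called by DESeq2). *Pcsk1n*, which encodes the convertase inhibitor proSAAS, ran from 13.99 to 273.3 CPM in RPG3 and from 0 to 54.9 CPM in SSC1-4 (3.18, adjusted p = 1.29e-17), and *Mme*, the gene of the peptide-degrading enzyme neprilysin, was higher too (3.68, adjusted p = 4.02e-07). *Pcsk2*, a second convertase (-3.29, adjusted p = 1.42e-04), and *Pam*, the amidating enzyme that TRH, secretin, peptide YY and CGRP require (-1.65, adjusted p = 4.61e-05), were lower, *Pam* at 0.517 to 10.2 CPM in RPG3 and 1.87 to 44.0 CPM in SSC1-4.

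Of 14 granule genes tested, 1 was higher and 3 were lower in RPG3. *Rab27a*, a GTPase of granule docking, had 3.50 to 51.0 CPM in RPG3 and 0 to 26.9 CPM in SSC1-4 (4.43, adjusted p = 2.55e-13). *Rab3a*, a vesicle GTPase, was lower (-1.72, adjusted p = 5.61e-06), as was *Cadps2*, which primes granules for release (-3.55, adjusted p = 7.79e-06). *Sytl4* (granuphilin) had 0 UMIs in RPG3 and was at least 9.37-fold higher in SSC1-4 (adjusted p = 0.0018), a call not made in batch B1 alone.

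Of 9 receptor genes tested, 2 were higher and 2 lower in RPG3. Both higher genes encode receptors of peptide YY and neuropeptide Y. *Npy1r* had 32 UMIs in RPG3 and 0 in SSC1-4, which makes it at least 82.0-fold higher (adjusted p = 5.78e-07), and *Npy2r* had 38 UMIs against 31 (log2 fold change 3.04, adjusted p = 0.00218), but DESeq2 called neither. Both lower genes encode parts of the CGRP receptor, *Calcrl* (3 UMIs in RPG3, a pooled ratio of 23.03 with a counting interval of 7.84 to 112, adjusted p = 0.00965) and *Ramp1* (-3.23, adjusted p = 1.09e-04). The call of *Calcrl* was not made with batch in the model. Of 11 regulators tested, 3 were higher and 2 lower. *Atf4*, a stress-response factor of the CREB family, ran from 347.2 to 466.5 CPM in RPG3 and 89.1 to 291.1 CPM in SSC1-4 without overlap (1.57, adjusted p = 2.01e-21). *Thra*, a thyroid hormone receptor (2.02, adjusted p = 1.91e-05), and *Neurod1*, a factor of endocrine and neuronal cells (3.14, adjusted p = 5.21e-04, not called in either batch alone), were higher. The CREB coactivators *Crtc3* (-2.72, adjusted p = 2.53e-10) and *Crtc1* (-1.51, adjusted p = 3.96e-08) were lower. With the library as a block, which only the 2 libraries that hold both classes inform, 5 list genes were higher and 7 lower in RPG3. In that fit *Edn2* (8.25), *Mme* (1.04), *Thra* (3.45), *Pam* (-2.83), *Cadps2* (-2.39), *Rab3a* (-1.64), *Crtc3* (-3.49) and *Crtc1* (-1.26) were not called, and nor was *Apela* in RPG1 (0.55). In batch B2 alone, with 3 RPG3 sums, *Edn2*, *Pthlh*, *Pcsk2*, *Pam*, *Rab27a*, *Rab3a*, *Ramp1*, *Atf4*, *Thra*, *Crtc3* and *Crtc1* were not called either, and the direction held for each. The 7 neuroendocrine and neuronal markers summed to 354.2 to 758.6 CPM in RPG3, of which *Stmn2* gave 327.4 to 680.4 CPM, and to 5.66 to 64.1 CPM in SSC1-4, and their part in these calls was not tested.

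**Figure D5:**
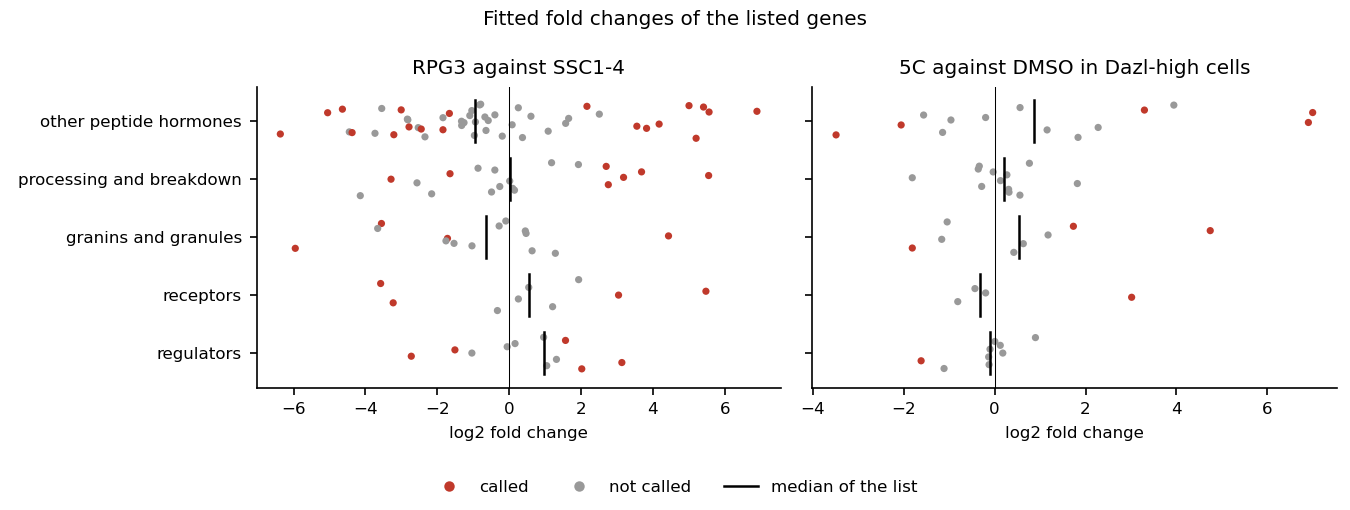
Fitted log2 fold change of each listed gene, RPG3 against SSC1-4 and 5C against DMSO in Dazl-high cells, by list. Red points were called, grey points were not, and bars are list medians. In RPG3 20 genes were higher and 19 lower, and in Dazl-high 5C cells 6 were higher and 4 lower.

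In Dazl-high cells 47 list genes were tested, and 6 were higher and 4 lower in 5C than in DMSO, against 2.33% and 2.17% of all genes. Their median log2 fold change was 0.13, against 0.03 over all genes tested. The other hormone genes *Npy* (0.411 to 5.83 CPM in 5C), *Ghrh* (growth hormone-releasing hormone, 0 to 5.81 CPM in 5C) and *Gal* (galanin, 1.69 to 71.8 CPM in 5C and 0 to 4.53 CPM in DMSO, log2 fold change 3.30, adjusted p = 0.00646) were higher. With 0 UMIs in DMSO, 5C was at least 14.9-fold higher for *Npy* (adjusted p = 0.00456) and 20.1-fold for *Ghrh* (adjusted p = 0.00679). *Nucb2*, the gene of the nesfatin-1 precursor, ran from 10.1 to 31.8 CPM in 5C and from 56.4 to 108.2 CPM in DMSO without overlap (-2.05, adjusted p = 1.18e-05), and *Prok2* (prokineticin 2) was lower too (-3.48, adjusted p = 0.00314).

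Of 12 processing genes tested in Dazl-high cells, 0 were called in either direction by edgeR or DESeq2, with 1 higher and 0 lower at an unadjusted p under 0.05, beside 2307 and 2152 of all 12452 genes. Among the granule genes, *Ptprn*, a membrane protein of dense-core granules, ran from 2.05 to 14.2 CPM in 5C and 0 to 1.33 CPM in DMSO (4.74, adjusted p = 6.89e-04), and *Chga* (chromogranin A) was higher (1.73, adjusted p = 0.00833). *Stx1a*, a SNARE gene of vesicle fusion, was lower without overlap of the ranges (-1.81, adjusted p = 0.00112). *Ramp2*, which turns the *Calcrl* product into an adrenomedullin receptor, ran from 18.4 to 62.5 CPM in 5C and 2.204 to 8.05 CPM in DMSO (3.01, adjusted p = 6.08e-05), and *Crtc3* was lower (-1.61, adjusted p = 0.00771).

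The calls of *Nucb2*, *Ptprn*, *Stx1a* and *Ramp2* were kept when any 1 sample was left out. That of *Prok2* was lost without DMSO sample 3 (-3.14) or 5 (-3.12), that of *Npy* without DMSO sample 3, 4 or 5, and that of *Ghrh* without any of these or 5C sample 7. With 0 UMIs in DMSO, the fitted folds of *Npy* and *Ghrh* depend on the prior count and are not given. That of *Gal* was lost without any of 5C samples 4, 6, 7 and 8 or DMSO samples 1, 2, 4 and 5 (2.81 to 3.53), that of *Crtc3* without any of 5C samples 1, 3, 4, 6 and 8 or DMSO samples 3, 4 and 5 (-1.62 to -1.28), and that of *Chga* without any of 5C samples 2, 3, 4, 5, 7 and 8 or DMSO samples 1, 3 and 5 (1.61 to 1.75). Without DMSO samples 1 and 2 together, *Gal* (3.02) and *Chga* (1.38) were not called, and 7 list genes were higher and 7 lower. In Dazl-low cells 43 list genes were tested and 0 were called in either direction by edgeR or DESeq2, against 1.42% higher and 1.21% lower of all genes and with only 2 DMSO samples. At an unadjusted p under 0.05, 4 were higher and 6 lower, beside 1710 and 1803 of all 11647 genes.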

How the data were processed

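Single-cell RNA was measured by modified STRT-seq and by scTrio-seq2. Reads were, per the labels and the study's methods, trimmed, tagged with UMIs, aligned with STAR 2.7.2b to mm10 and counted with featureCounts 2.0.0, and what the authors deposited are UMI counts for each gene in each cell, not normalized, with the percent of mitochondrial counts. The gene annotation was not given in the sources used here. The authors kept cells on gene number and mitochondrial percent, and genes seen in at least 3 cells. *Pyy* was dropped from the filtered 5C table by that gene filter, so the deposited unfiltered counts of the kept cells were used (768 5C and 392 DMSO cells before their filter, 724 and 365 after it), and 0 values differed between the 2 tables. Clusters, days and batches are those of the deposited cell annotation, and scTrio-seq2 days were read from the cell names. No doublet caller was run, since cells were picked singly by mouth pipette.

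Counts were summed per library and class (at least 5 cells), scaled by TMM and tested with edgeR 4.0.16 (quasi-likelihood, R 4.3.3) after edgeR's expression filter, with 1 fit over SSC1-4 and RPG1 to RPG4 and 1 fit each for Dazl-high and Dazl-low cells. Genes with an adjusted p below 0.01 whose fold had a natural logarithm of 1 or more in size were called. DESeq2 1.42.0 was an alternative. Levels of SSC1-4 and RPG1 to RPG4 were scaled together, those by cluster and those of scTrio-seq2 in separate tables, and levels were not compared between tables by a test. Exact binomial and Poisson intervals are at 95% and cover counting error only.

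The 5 genes, the lists and the tests were chosen with earlier results of these data known. Genes named are the 5, the 3 most like each by correlation, and per list and comparison up to 3 called genes with the largest fold in each direction. SSC1-4 and RPG1 or RPG3 cells of the same library come from the same source (correlations of their deviations in the 2 shared libraries 0.108 and 0.101 for RPG1, and 0.128 and 0.11 for RPG3), and the scTrio-seq2 sample numbers gave correlations of -0.0864 to 0.0671. On simulated counts with 200 changed genes, the fit recovered 53% of 4-fold and 77% of 8-fold changes for RPG1 against SSC1-4, 58% and 66% for RPG3 against SSC1-4, 71% and 86% for Dazl-high cells and 41% and 64% for Dazl-low cells. The DNA methylation files were not used here.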

Additional observations from a re-analysis of the deposited data

Results flagged for a closer look

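In 22 groups of 4 to 10 sums of the 5 genes, 10 sums stood apart from the rest of their group by the size of the gap, and most are sums with a few cells holding the UMIs. This is a description with no chance rate, since a group with a single sum above 0 gives such a gap by itself. In RPG1, *Cartpt* was 42.3 CPM in library 1 of day 23, *Pyy* was 1.65 CPM in library 8 of day 20 and *Sct* was 0.247 CPM in library 2 of day 23. In RPG3, *Pyy* was 3.07 CPM in library 1 of day 20. In Dazl-low 5C cells, *Trh* was 1171 CPM in sample 1, *Sct* 12.6 CPM in sample 6, *Pyy* 17.9 CPM in sample 3 and *Calca* 69.2 CPM in sample 5. In Dazl-high cells, *Calca* was 1.83 CPM in 5C sample 6 and 14.6 CPM in DMSO sample 2.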

How the results depend on the processing

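The class means of the 5 genes moved by less than 1 SD in all 75 values on the plain total, over batch means or with at least 10 cells, and no fitted fold of a named list gene changed sign. For *Trh* in Dazl-high cells, which had no test, the mean was lower in 5C than in DMSO (75.6 against 80.5 CPM) but the fitted log2 fold change was 0.20, and DMSO samples 3 to 5 lay below every 5C sample. For *Calca* there the mean was lower in 5C (0.602 against 3.73 CPM), with DMSO samples 3 to 5 at 0. For the named genes of the lists, 351 alternative values kept their call and 85 lost it. Without thinning, 17 shares of cells with a UMI moved beyond their interval and 8 did not. By Spearman's rho, 8 of the genes most like *Trh*, *Cartpt*, *Calca* or *Pyy* stayed among the 10 nearest, and *Col9a1* (0.18), *Foxd1* (0.28), *Otx2* (0.53) and *Fgf15* (0.53) did not. With an adjusted p below 0.05 and no minimum fold, the calls were 530 higher and 376 lower (list genes 3 and 1) for RPG1, 5180 and 6083 (list genes lower 31) for RPG3, 1530 and 1436 (list genes lower 7) for Dazl-high cells and 795 and 1152 (list genes lower 4) for Dazl-low cells, against 199 and 71, 2218 and 2913, 290 and 270, and 165 and 141. DESeq2 gave 92 higher and 156 lower for RPG1 (list genes lower 1), 412 lower for Dazl-high and 389 higher for Dazl-low cells. With no filter on low counts, RPG1 had 438 higher (list genes 2), and Dazl-low cells had 220 lower and 1 list gene in each direction. Sums of at least 10 cells gave 344 higher and 108 lower for RPG1, and sums per batch, day and class gave 19 lower and 0 list genes higher for RPG1 and 10 list genes lower for RPG3. With batch as a covariate 2 list genes were higher in RPG1. Batch B1 alone gave 129 higher and 34 lower for RPG1. Batch B2 alone gave 21 and 0 (list genes 0) for RPG1 and 1139 and 721 (list genes 4 and 3) for RPG3. A split at 800 CPM of *Dazl* gave 0 and 0 calls for Dazl-low cells.

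With the library as a replicate block, which only 2 libraries can inform, RPG1 had 1 gene higher and 0 lower (list genes 0), and RPG3 had 983 and 760 (list genes 5 and 7). With the sample number as a block in Dazl-high cells, where the numbers pair nothing, 71 were higher and 80 lower (1 list gene each). No paired analysis was possible in Dazl-low cells because the arms share only sample number 1. Leaving out 1 sample at a time gave 2 to 6 list genes higher and 2 to 5 lower in Dazl-high cells, and 21 to 202 genes higher and 33 to 166 lower in Dazl-low cells, lowest without DMSO sample 2 (21 and 33), then DMSO sample 1 (25 and 36), each leaving a lone DMSO sum whose spread is assumed to be that of the other samples. The number of higher calls was 105 without 5C sample 1. Without DMSO samples 1 and 2 together, chosen after seeing the data, Dazl-high cells gave 463 higher and 464 lower (list genes lower 7). The cause of these changes was not tested, apart from fewer sums in the batch, block and left-out fits. Many sums of *Sct* and *Pyy* rest on a few cells.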
